A study of Homo sapiens with 5 samples.

Results

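The gene-dense end of the long arm of human chromosome 9 (9q34.3) around NRARP was described by the histone marks found there in VCaP, a human cell line established from prostate cancer. The members are the deposited peaks that overlap chromosome 9 from 140030001 to 140230000 (hg19, a 200 kb interval), and the 5 genes GRIN1, ANAPC2, TUBB4B, NELFB and NRARP inside it. The interval held 114 of the 364358 deposited peaks. It was chosen by the length of H3K27ac measured in these same libraries, so the amount of H3K27ac, and its excess over H3K4me1, are descriptions and carry no test.

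Chromatin of VCaP cells was immunoprecipitated with antibodies to acetylated lysine 27 of histone H3 (H3K27ac, 2 libraries) and to monomethylated lysine 4 (H3K4me1, 2 libraries), and 1 input library was made. The labels name no treatment and no genetic change, all libraries share the same line and medium, and separate cultures are not stated, so the spread between libraries may be technical. Peaks were deposited as positions only, so the depth of each library and the height of each peak are unknown. Gene positions are those given with the definition of the interval, in Mb of hg19 and rounded to 1 kb, or to 10 kb for ANAPC2 and NELFB. Those of ANAPC2, TUBB4B and NELFB are also called approximate there. Distances and shares below are measured from these positions as given. The labelled cell type was not checked against marker genes, because start sites in hg19 were at hand for no others.

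H3K27ac is found at active promoters and active enhancers, and H3K4me1 at enhancers and on the shoulders of active promoters, where the start site itself usually carries trimethylation instead. A promoter in use therefore often shows acetylation across its start with H3K4me1 on its flanks, while at an active enhancer both marks are often found over the same stretch. NRARP encodes a small ankyrin repeat protein that is switched on by Notch signalling and promotes the breakdown of the active Notch fragment. NELFB encodes a subunit of the negative elongation factor, which holds RNA polymerase II shortly after it has started. TUBB4B is a widely expressed beta-tubulin, ANAPC2 the cullin-like subunit of the anaphase-promoting complex, and GRIN1 the subunit that every NMDA-type glutamate receptor of neurons needs. In the RefSeq table of GRCh38.p14, the stretch from GRIN1 to NRARP holds 24 genes, of which 19 are protein coding, among them SSNA1, TPRN, NDOR1, SLC34A3 and TOR4A. That table belongs to another build and was used for names, order, strands and sequences, and for ANAPC2 also for the spacing of starts.

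The bases before the starts of NRARP and TUBB4B are shown because both given positions lay under H3K27ac and off H3K4me1. This also held for the lower end of NELFB, which is given to 10 kb only and whose bases are not shown. The sequences are the 250 bases before the start, 5′ to 3′ on the strand of the gene, from RefSeq (GRCh38.p14, whose numbering differs from that of hg19), with each CG dinucleotide in capitals. The first is chr9:137302272-137302521 on the minus strand and the next chr9:137241037-137241286 on the plus strand.
NRARP: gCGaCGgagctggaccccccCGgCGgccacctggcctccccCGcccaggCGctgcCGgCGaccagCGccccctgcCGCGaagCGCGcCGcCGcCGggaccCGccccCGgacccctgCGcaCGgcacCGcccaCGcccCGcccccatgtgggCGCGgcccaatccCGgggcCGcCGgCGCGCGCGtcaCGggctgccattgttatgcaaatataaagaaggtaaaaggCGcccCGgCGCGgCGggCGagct
TUBB4B: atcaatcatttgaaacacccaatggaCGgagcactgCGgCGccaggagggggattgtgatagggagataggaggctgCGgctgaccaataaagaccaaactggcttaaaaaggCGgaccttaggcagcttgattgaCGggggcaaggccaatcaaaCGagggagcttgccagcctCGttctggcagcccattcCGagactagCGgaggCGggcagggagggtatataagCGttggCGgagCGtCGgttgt

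The sequence before NRARP was rich in CG and that before TUBB4B was not. There were 39 CG dinucleotides before NRARP and 15 before TUBB4B, against a median of 11 over 35116 promoters of the same length, and 97.3% of these held fewer than NRARP. NELFB had 36 and ANAPC2 had 40, so that 3 of the 4 members in the table lay well above the median. The letters GGGCGG, the core of an SP1 motif, occurred on either strand 4 times before NRARP, 7 times before NELFB, 1 time before ANAPC2 and not before TUBB4B (42.6% of all promoters held them), and these matches overlap the capital CG letters. CCAAT, searched on both strands, occurred 3 times before TUBB4B and 1 time before NRARP (32.0% of promoters). TATAAA occurred 1 time before NRARP and before no other member (10.7% of promoters). Only these exact letters were counted, so that the similar TATATAAG before TUBB4B was not. TGGGAA, the core letters of the motif of the Notch effector RBPJ, were in none of these 4 windows (20.8% of promoters held them). These matches are descriptions of letters and not binding sites.

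Both marks were dense in the interval, and they were arranged as a chain of blocks with long unmarked gaps. H3K27ac covered 52.0 kb in replicate 1 and 51.0 kb in replicate 2, or 25.8 ± 0.351% of the interval (SD, n = 2). H3K4me1 covered 37.3 kb in replicate 1 and 50.3 kb in replicate 2, or 21.9 ± 4.60% (SD, n = 2). The H3K27ac libraries lay close together and the H3K4me1 libraries far apart, and the lower H3K27ac library stood only just above the higher H3K4me1 library. Both H3K27ac libraries exceeded both H3K4me1 libraries in 2046 of 12498 windows of 200 kb that hold a peak (16.4%), and nothing is read from this, since H3K27ac length was used for the choice.

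**Figure D1:**
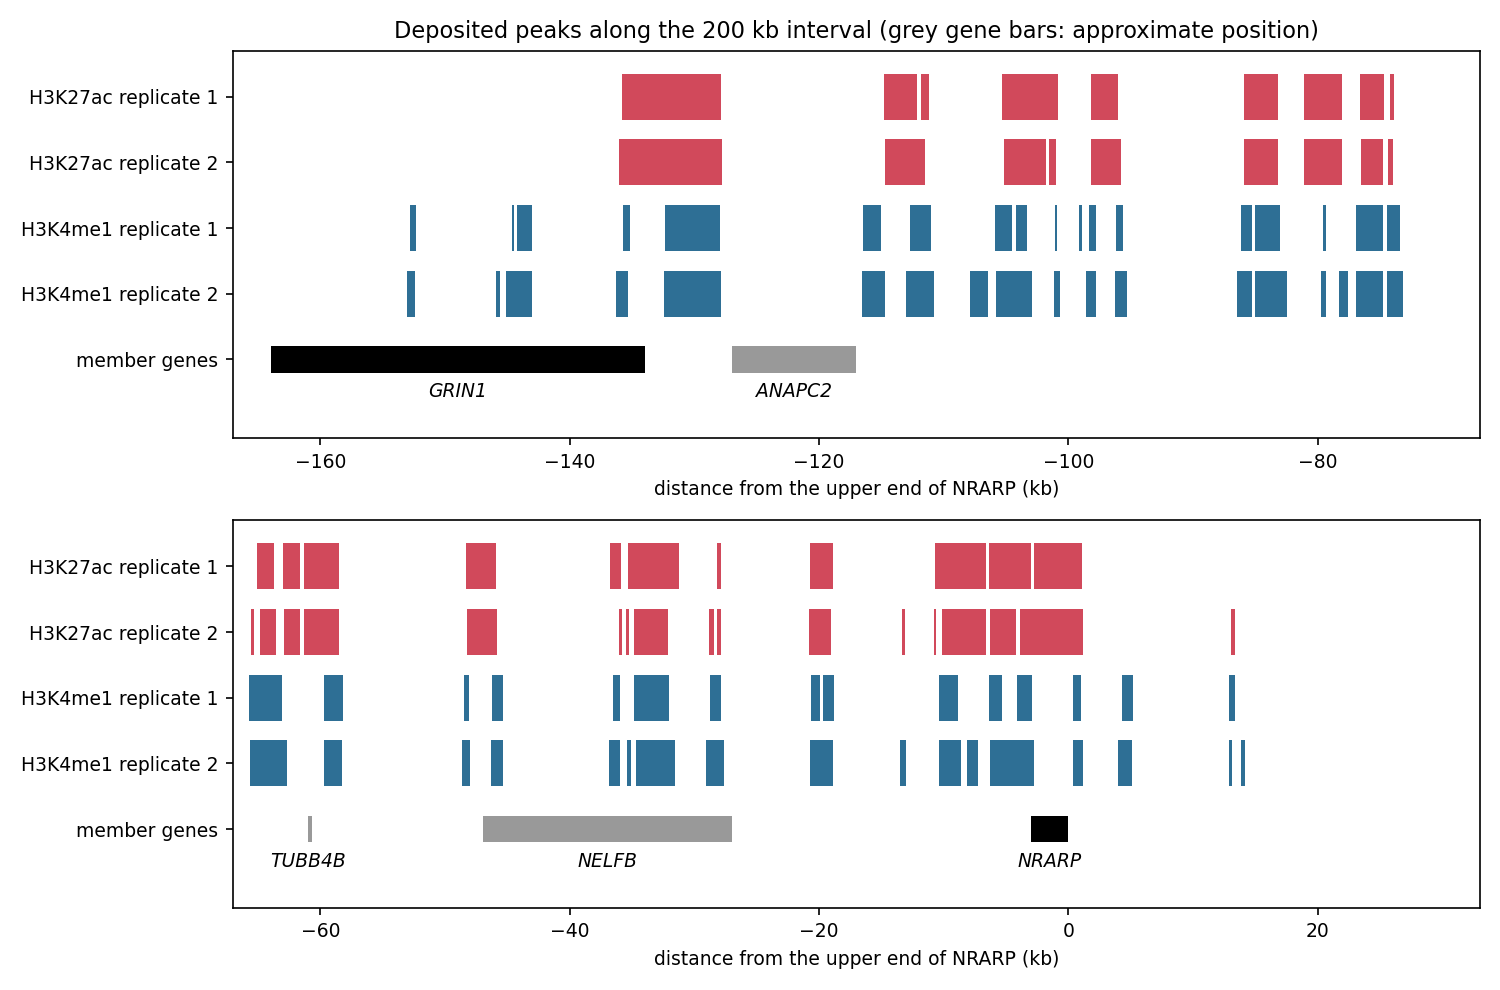
Deposited peaks of each library along the interval, drawn to scale in 2 panels, with distance from the upper end of NRARP in kb on the x axis and 1 row per library. Bars are peaks (red, H3K27ac; blue, H3K4me1), and black bars mark genes at given positions and grey bars those given as approximate; most of GRIN1 has no peak, and before its upper end its peaks are H3K4me1 only, while NRARP lies under H3K27ac.

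The peaks themselves differed in number and width. H3K27ac formed 20 and 26 peaks in replicates 1 and 2, with median widths of 2556 and 1755 bp, against 902 and 623 bp over the whole genome. H3K4me1 formed 33 and 35 peaks, with medians of 895 and 1140 bp, against 448 and 650 bp over the whole genome. Every one of the 20 peaks of H3K27ac replicate 1 overlapped a peak of replicate 2, as did 22 of the 26 peaks of replicate 2 in the other direction. For H3K4me1 this held for 32 of 33 peaks of replicate 1 and 28 of 35 of replicate 2. The peaks found in a single library measured 242 to 422 bp for H3K27ac and 230 to 1416 bp for H3K4me1. Agreement by length was 85.8% for H3K27ac and 69.7% for H3K4me1 (bases in both libraries as a share of bases in at least 1), against 76.9 and 51.8% over the whole genome.

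For each mark, peaks overlapping by at least 1 bp were merged over both libraries, and the merged stretches to which each library contributes a peak are called regions below. There were 18 H3K27ac regions (312 to 8225 bp, median 2627 bp, 54.2 kb in all) and 28 H3K4me1 regions (370 to 4523 bp, median 1365 bp, 47.2 kb in all). Among 15187 windows of 200 kb tiled over the autosomes and chromosome X, 14 held more H3K27ac length, 26 more H3K4me1 length and 24 more length under both marks. The median window held 2.24 kb of H3K27ac and 4.08 kb of H3K4me1. Tiled windows overlap the interval in part, and its rank describes a place that was chosen for its H3K27ac.

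**Figure D2:**
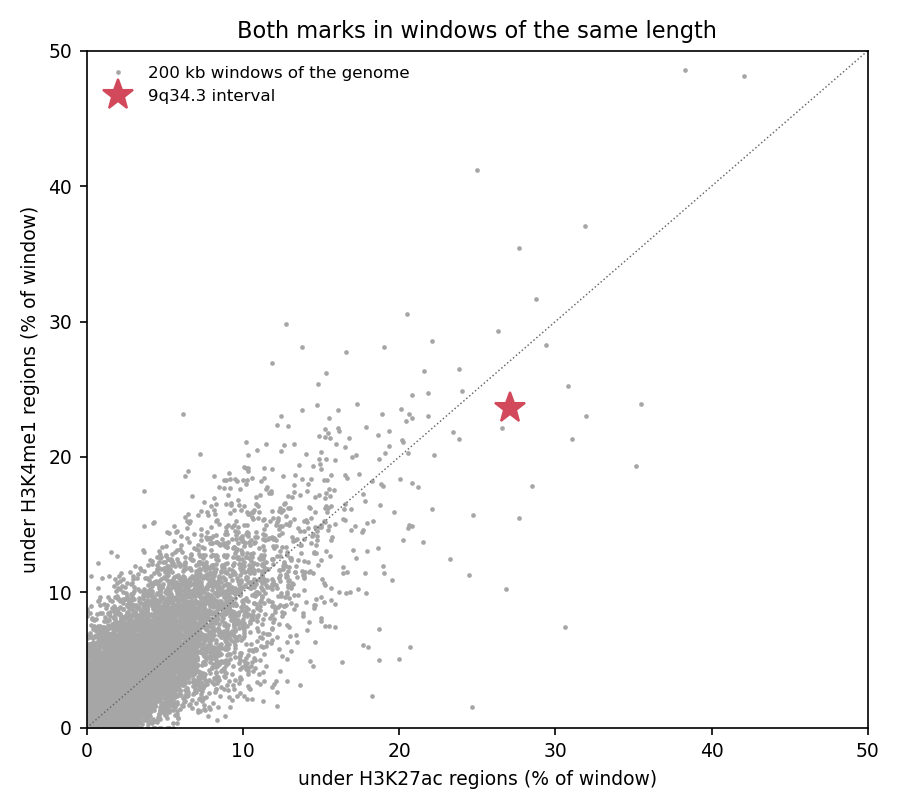
Share of each 200 kb window of the genome under H3K27ac regions (x axis, %) and under H3K4me1 regions (y axis, %), each grey point 1 window, with equal shares on the dotted line. The star marks the interval, at 27.1% H3K27ac and 23.6% H3K4me1, far from the bulk of windows near the origin.

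At NRARP the marks were largely separate. The gene, given at 140.194 to 140.197 Mb and read towards lower positions, was covered by H3K27ac over 90.7% of its length in replicate 1 and 100% in replicate 2. H3K4me1 covered 1.87% in replicate 1 and 7.9% in replicate 2. The H3K27ac and H3K4me1 libraries do not overlap here. This is a description only, since H3K27ac length was used to choose the interval, and other gene spans of the genome were not counted. At its start, 140.197 Mb, both H3K27ac libraries had a peak and the nearest H3K4me1 peak was 356 bp away in replicate 1 and 351 bp away in replicate 2, which is within the rounding of the position.

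The H3K27ac peak over the gene ran from 140194281 to 140198122 in replicate 1 and from 140193155 to 140198170 in replicate 2. H3K4me1 lay near both of its ends, and at the upper end the H3K4me1 region was under H3K27ac over 96.7% of its length. Above the start lay an H3K4me1 peak from 140197356 to 140197999 in replicate 1 and from 140197351 to 140198198 in replicate 2. At its lower end, H3K4me1 peaks reached into the given span and ended at 140194056 in replicate 1 and at 140194237 in replicate 2. Between them H3K27ac stood alone from 140194238 to 140197350, a stretch of 3113 bp that runs over most of the gene. It measured 3070 to 3299 bp in the 4 pairs of 1 H3K27ac with 1 H3K4me1 library, and it was the longest stretch of H3K27ac alone in the interval. In H3K27ac replicate 1 the peak over the gene began above the end of the lower H3K4me1 peak of either library. The presence of both marks on the lower side of the stretch thus rests on H3K27ac replicate 2.

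Downstream of NRARP the acetylation went on. The region that covers the gene reached from 140190669 to 140198170 (7502 bp, 58.5% of it under H3K4me1), and a gap of 260 bp separated it from another one from 140186223 to 140190408 (4186 bp, 43.0% under H3K4me1). The region over the gene was continuous in neither library. It was broken between 140193979 and 140194281 in replicate 1 and between 140192763 and 140193155 in replicate 2. The H3K4me1 region from 140190648 to 140194237 (3590 bp) lay almost wholly inside this merged region, with 99.4% of its length under H3K27ac. In replicate 1 it consisted of 2 peaks, and in replicate 2 of 1. Upstream, the H3K4me1 region from 140200978 to 140202186 (1209 bp) carried no H3K27ac in either library. Widened by 2 kb on each side, NRARP was under H3K27ac over 83.2 and 82.6% and under H3K4me1 over 26.2 and 44.1% of the span.

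TUBB4B, which is read towards higher positions, also had H3K27ac without H3K4me1 at its given position. A peak from 140135689 to 140138470 in H3K27ac replicate 1 and from 140135705 to 140138476 in replicate 2 covered 140.136 Mb. The nearest H3K4me1 was 1293 bp away in replicate 1 and 1276 bp away in replicate 2. Widened by 2 kb on each side, the position had H3K27ac over 91.3 and 89.1% of the span, and H3K4me1 over 17.7 and 25.7%. The groups of libraries do not overlap, which again only describes a place chosen for its H3K27ac. This span is a 4 kb window around 1 position and cannot be ranked against the spans of whole genes.

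Around TUBB4B the marks followed each other in order along the chromosome. An H3K4me1 region from 140131238 to 140134301 (3064 bp) came first and contained the H3K27ac region from 140131894 to 140133465 (1572 bp) entirely. The H3K27ac region from 140134020 to 140135359 (1340 bp) had H3K4me1 at its lower end only, over 21.0% of its length, and this rests on H3K4me1 replicate 2, since the peak of replicate 1 ended at 140133927. A gap of 329 bp without either mark lay between it and the H3K27ac region over TUBB4B (140135689 to 140138476, 2788 bp). H3K4me1 returned at the upper end of that region, from 140137276 to 140138821 (1546 bp), and covered 43.1% of it. H3K4me1 was thus present on both outer sides of the pair of H3K27ac regions and missing from the 2 stretches next to the gap, of 1058 and 1587 bp.

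NELFB, also read towards higher positions, had H3K4me1 on both flanks of the acetylation at its lower end. Its lower end, given as about 140.15 Mb, lay in an H3K27ac peak in both libraries, from 140148685 to 140151110 in replicate 1 and from 140148755 to 140151196 in replicate 2. H3K4me1 regions sat on both edges of this region, from 140148339 to 140149026 (688 bp) and from 140150694 to 140151655 (962 bp), and left H3K27ac alone over 1667 bp in the middle (1667 to 1864 bp in the 4 pairs of libraries). The position is rounded to 10 kb, so that the distance from the start itself is not known.

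The body of NELFB carried both marks together. The H3K27ac region from 140161515 to 140165734 (4220 bp) enclosed the H3K4me1 region from 140162136 to 140165458 (3323 bp), which covered 78.7% of it and also its middle. A smaller H3K4me1 region from 140160185 to 140161043 (859 bp) lay under H3K27ac over 91.0% of its length, and one from 140167939 to 140169378 (1440 bp) over 21.7%. Over the span of the gene as given, H3K27ac covered 6.27 kb in replicate 1 and 5.10 kb in replicate 2, and H3K4me1 covered 5.16 and 6.69 kb. These values overlap between the marks, so NELFB as a whole showed no excess of either one.

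ANAPC2 held neither mark inside its given span of about 140.07 to 140.08 Mb, with 0 peaks in all 4 libraries, and both marks stood close to its ends. The gene is read towards lower positions, so that its start is at the upper end. The nearest H3K27ac began 2182 bp above that end in replicate 1 and 2262 bp in replicate 2, and H3K4me1 began 492 and 450 bp above it. There the H3K4me1 region from 140080450 to 140082270 (1821 bp) led into the H3K27ac region from 140082182 to 140085803 (3622 bp), with 89 bp under both marks. H3K27ac stood alone for 1681 bp (1681 to 2122 bp in the 4 pairs of libraries) before the next H3K4me1 region, from 140083952 to 140086246 (2295 bp). The overlap of 89 bp rests on H3K4me1 replicate 2, since the peak of replicate 1 ended at 140081993, before any H3K27ac. The span is rounded to 10 kb and may not include the start of the gene. If starts are spaced as in GRCh38.p14, counted from those of TUBB4B and NRARP, the start of ANAPC2 would fall above the given upper end. It would then lie in the stretch of H3K27ac without H3K4me1. This spacing was not checked in hg19, and the start of the neighbouring SSNA1 was not placed.

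GRIN1 was marked at its end and not at its start. At 140.033 Mb, its start (it is read towards higher positions), no library had a peak, and the nearest H3K27ac was 7715 bp away in replicate 1 and 7719 bp away in replicate 2. The nearest H3K4me1 was 11206 bp away in replicate 1 and 7726 bp in replicate 2. Inside the gene stood 2 H3K4me1 regions without H3K27ac in either library, from 140043932 to 140044662 (731 bp) and from 140051920 to 140054000 (2081 bp). Over the span from 140.033 to 140.063 Mb, H3K27ac covered 1.79 and 2.02 kb, all of it at the upper end, and H3K4me1 covered 2.44 and 4.01 kb.

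The end of GRIN1 lay in the widest H3K27ac region of the interval, from 140060977 to 140069201 (8225 bp). It was 1 unbroken peak in each library, of 7917 bp in replicate 1 and 8225 bp in replicate 2. H3K4me1 covered its lower edge from 140060691 to 140061816 (1126 bp) and its upper part from 140064596 to 140069118 (4523 bp). Between them lay 2779 bp of H3K27ac alone, or 2845 to 2892 bp in the 4 pairs of libraries. The region reaches beyond the given end of GRIN1 towards LRRC26 and TMEM210, its next protein-coding neighbours in the RefSeq order.

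**Figure D3:**
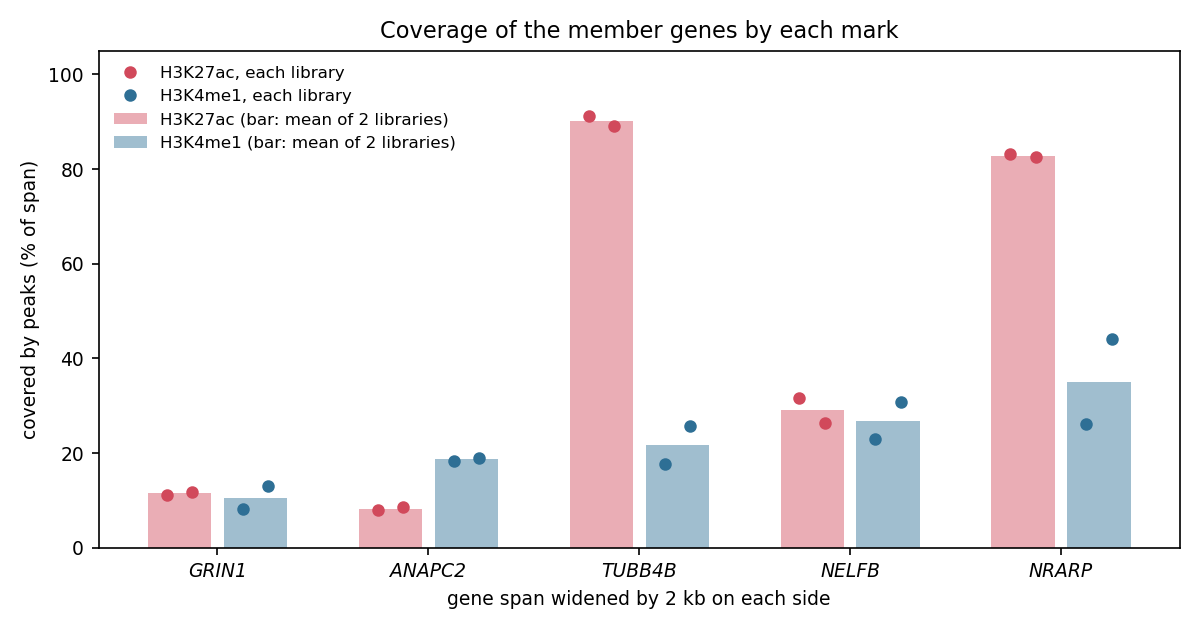
Percentage of each gene span, widened by 2 kb on each side, under peaks of H3K27ac (red) and H3K4me1 (blue); bars are means of 2 libraries and points the single libraries. H3K27ac lies far above H3K4me1 at TUBB4B and NRARP, below it at ANAPC2, and the points of both marks overlap at GRIN1 and NELFB. TUBB4B is a 4 kb window around 1 position, while the other spans include the given gene. The span given for ANAPC2 may not include its start.

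Between ANAPC2 and TUBB4B 5 further H3K27ac regions of at least 1 kb showed several arrangements of the marks. The regions from 140091648 to 140096133 (4486 bp) and from 140098815 to 140101241 (2427 bp) had H3K4me1 on both edges and stretches of 1732 and 1504 bp of H3K27ac alone inside. The first stretch measured 1117 to 2191 bp in the 4 pairs of libraries, and H3K27ac replicate 2 was itself broken there. The other measured 1504 to 1580 bp. The region from 140111097 to 140113838 (2742 bp) was under H3K4me1 over 91.4% of its length, with a break of 235 bp. The region from 140115923 to 140118952 (3030 bp) was the reverse, with an H3K4me1 region of 370 bp in its middle and none on its edges. In H3K4me1 replicate 2 alone, however, a peak from 140118719 to 140119422 (704 bp) lay across its upper edge. The region from 140120370 to 140122288 (1919 bp) was under H3K4me1 over 97.0%, as was the one from 140176210 to 140178102 (1893 bp), between NELFB and NRARP, over 97.8%.

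Along the interval H3K27ac and H3K4me1 thus overlapped in part and changed places in part. Both marks lay on 32.5 kb, H3K27ac alone on 21.7 kb, H3K4me1 alone on 14.7 kb and neither on 131.2 kb. H3K4me1 covered 60.0% of H3K27ac length, and 50.1 to 61.3% in the 4 pairs of libraries. H3K27ac covered 68.9% of H3K4me1 length, and 61.9 to 69.8% in the 4 pairs. Over the whole genome these shares were 51.7 and 38.8%, and 41.8 to 52.9% and 31.8 to 42.2% in the 4 pairs. In each pair both shares were higher in the interval than over the genome. The larger gap between interval and genome was in the H3K4me1 share. Where H3K27ac is dense, more of any other mark can lie under it, and the part of density in this gap was not tested.

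All 18 H3K27ac regions overlapped an H3K4me1 region, against 34623 of 47128 over the genome (73.5%). With H3K4me1 replicate 1 alone 17 of the 18 did, and with H3K27ac replicate 2 alone 23 of its 26 peaks did. These counts need an overlap of 1 bp only. At least 50% of the length was covered in 12 of the 18 H3K27ac regions (66.7%, against 56.0% over the genome). For H3K4me1 regions this held for 19 of 28 (67.9%, against 33.9% over the genome). Of the 28 H3K4me1 regions, 24 overlapped H3K27ac, against 39927 of 84838 over the genome (47.1%). The 4 others were the 2 inside GRIN1, the one upstream of NRARP and a last one from 140209898 to 140210389 (492 bp). That last one was not free of acetylation in each library, since H3K27ac replicate 2 had a peak inside it, from 140210021 to 140210382 (362 bp). The common form was an H3K4me1 region lying across 1 edge of an H3K27ac region, which 18 of the 28 did, against 22102 of 84838 over the genome (26.1%). A further 4 lay wholly inside H3K27ac and 2 enclosed a short H3K27ac region.

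**Figure D4:**
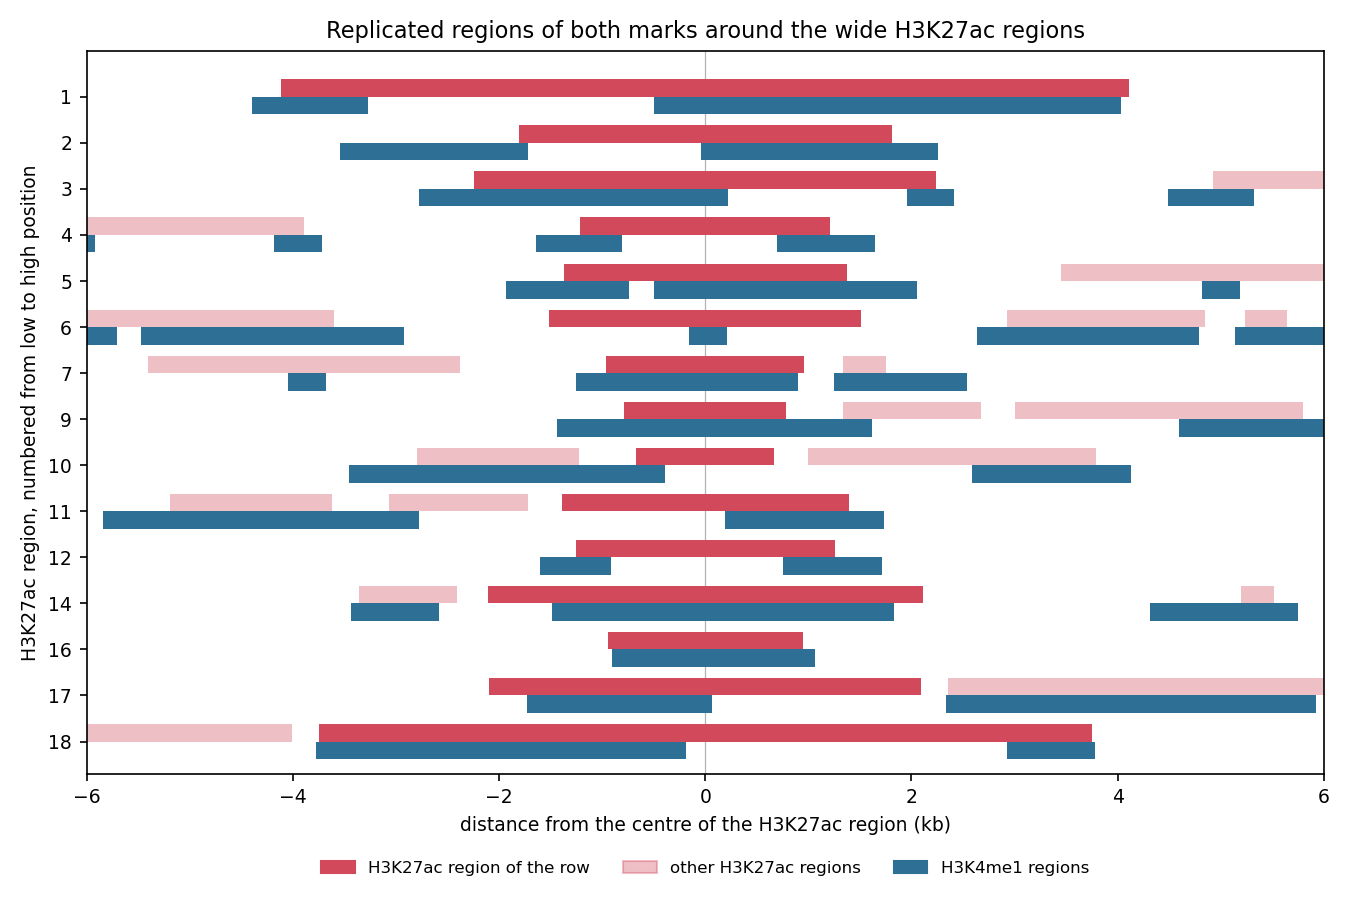
The 15 H3K27ac regions of at least 1 kb, aligned on their centres (x axis, kb) and numbered from low to high position (y axis), with H3K27ac in red, other H3K27ac regions in pale red and H3K4me1 in blue below. Rows 4, 12 and 18 (18 is the region over NRARP) have H3K4me1 on both ends and not in the middle, and rows 7, 9 and 16 are filled or almost filled. Row 18 joins 2 peaks in each library, and in H3K27ac replicate 1 its peak over NRARP overlapped H3K4me1 near the upper end only. Row 6 has an H3K4me1 region in the middle only, and a peak of H3K4me1 replicate 2 alone across its upper edge is not drawn.

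The marks also alternated inside the acetylated blocks. Of 19 stretches with H3K27ac alone, 7 were bounded on both sides by stretches with both marks, and 6 of these were at least 1 kb long. Over the genome 7809 of 41033 such stretches were bounded in this way (19.0%). The 4 pairs of libraries gave 7 to 9 in the interval. Of the 15 H3K27ac regions of at least 1 kb, 3 had H3K4me1 on both end bases and not on the middle base, against 2682 of 27140 over the genome (9.88%). These 3 are too few to set against that share, and other forms were as common, since 4 had H3K4me1 on all 3 bases and 3 on the middle base alone.

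H3K4me1 thinned out within 1 kb outside the edges of acetylation. In the 500 bp inside the edges of H3K27ac regions of at least 1 kb (30 edges), 67.2% of bases lay under H3K4me1, against 55.4% over the genome. In the 500 bp outside the share was 52.3%, against 32.8%, and from 500 to 1000 bp outside it was 8.94%, against 12.6%. From 500 to 1000 bp inside it was 55.5%, against 47.0%. With H3K4me1 replicate 1 alone the shares just inside, just outside and from 500 to 1000 bp outside were 57.0, 32.4 and 8.80%, and with replicate 2 alone 70.7, 53.6 and 7.76%. The drop from the first to the following 500 bp outside appeared in both libraries.

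**Figure D5:**
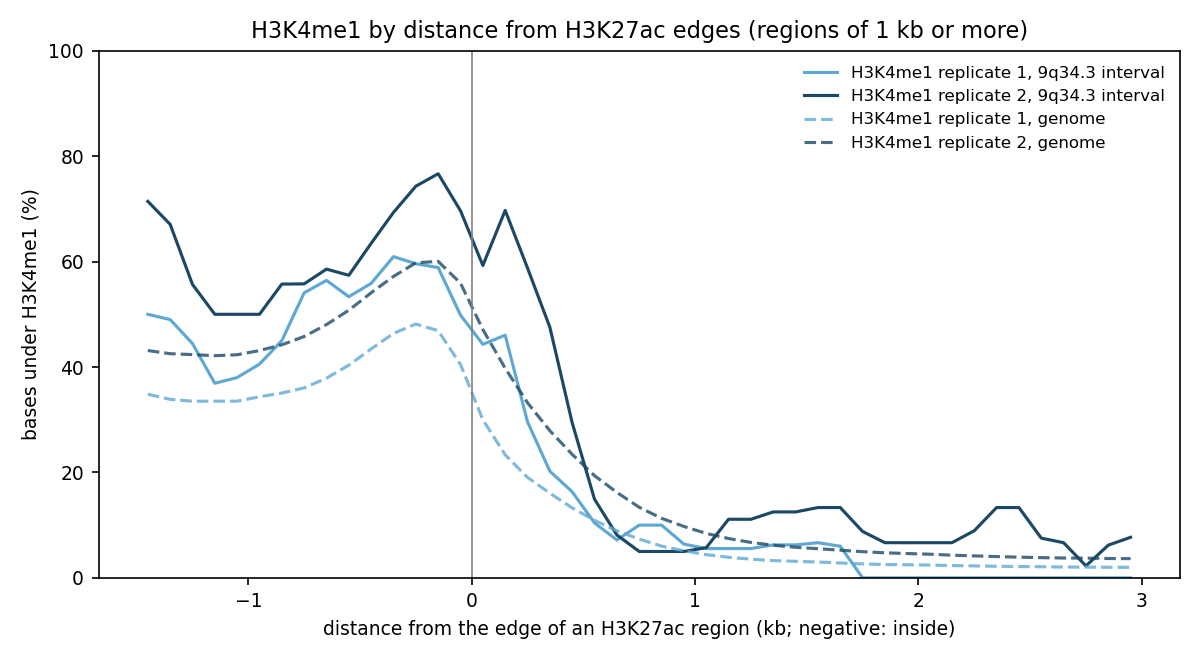
Percentage of bases under H3K4me1 (y axis) by distance from the edges of H3K27ac regions of at least 1 kb (x axis, kb, negative inside), in the interval (solid lines, 30 edges, fewer far from the edge) and over the genome (dashed lines), for each H3K4me1 library. In the interval the share is high on both sides of the edge and averages 8.80% in replicate 1 and 7.76% in replicate 2 between 500 and 1000 bp outside.

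Counted as changes between the 4 states (both marks, either one alone, neither), the interval had 92 switches, and 106 to 122 in the 4 pairs of libraries. Only 16 of 15187 windows had more, and the median window had 14. Per kb under either mark, however, the interval had 1.34 switches, against a median of 1.75 over the 1988 windows with at least 20 kb marked, of which 92.8% had more. The many switches thus came with a large marked length (68.8 kb), and the blocks were long for their number. Gaps between neighbouring H3K27ac regions measured 260 to 12980 bp (median 3091 bp), and 15 of the 17 gaps held some H3K4me1.

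Acetylation resumed close below the lower border. Below it, the nearest H3K27ac peak measured 4382 bp in replicate 1 and 4605 bp in replicate 2 and ended 4715 and 4719 bp before the border. Inside the interval the lowest H3K27ac began 31208 and 30976 bp from the border. Above NRARP the last H3K27ac peak of replicate 1 was the one over the gene, and replicate 2 had 1 more, from 140210021 to 140210382 (362 bp). The next H3K27ac beyond the upper border lay 51623 bp from it in replicate 1 and 51689 bp in replicate 2. The H3K27ac over NRARP thus ended at 140198122 and 140198170, a short way above the given start at 140.197 Mb.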

How the data were processed

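Peaks of 2 H3K27ac and 2 H3K4me1 libraries of VCaP cells were used; the input library was not analysed here. Per the submitters' processing notes, bcl2fastq 2.17, Trimmomatic 0.33, Bowtie 1.1.2 and MACS2 2.1.0 were used with build hg19 (GRCh37). Which step each served, with which threshold and control, is not given in the sources used here. A separate list for each library was deposited by the authors, with positions and names only, so no read depth, peak height or significance was available. Each list has its own smallest width (172 to 232 bp), which affects the number and width of peaks.

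Regions, overlaps (1 bp or more) and states were computed with Python 3.11.15 and numpy 2.4.6 on the autosomes and chromosome X, and the interval functions were tested on 50 simulated lists. No test was run, since H3K27ac length chose the interval, and an exact permutation test of 2 against 2 libraries cannot give p below 0.333. The genes and coordinates of the interval are those of its definition; regions named are all H3K27ac regions of at least 1 kb and H3K4me1 regions within 5 kb of a gene, besides others chosen after their values were seen, as was the 20 kb limit for windows compared by switches per kb. Members, genes and rules were chosen with earlier results of these data known. Alternatives covered single libraries, a common smallest width, bases in both or either library, same-numbered pairs, a wider interval, shifted windows and an overlap of at least 50%.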

Additional observations from a re-analysis of the deposited data

How the results depend on the processing

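Of 69 alternative values for the main results, 55 stayed within the spread between libraries or within 1.5 times the count, and no direction between the marks was tested. This tally is a loose measure. Some of the 55 could not move, such as the length of 1 mark when a library of the other was left out. The spread for H3K4me1 length was wide (SD 9.21 kb, n = 2). A fall from 18 to 12 H3K27ac regions, with at least 50% of the region covered, counted as unmoved. With bases covered in both libraries, H3K27ac covered 47.6 kb and H3K4me1 36.0 kb, and 49.3% of H3K27ac length lay under H3K4me1. With bases covered in either library, H3K27ac covered 55.4 kb. With the interval widened by 50 kb on each side, H3K27ac covered 64.4 kb and 64.6% of H3K4me1 length lay under H3K27ac. With each library left out in turn, H3K27ac covered 51.0 to 54.2 kb and H3K4me1 37.3 to 50.3 kb. The share of H3K27ac length under H3K4me1 was 50.1 to 62.0%, the lowest without H3K4me1 replicate 2, and that of H3K4me1 length under H3K27ac was 64.0 to 72.8%. The H3K27ac regions overlapping H3K4me1 numbered 17 to 23 (17 of 18 without H3K4me1 replicate 2, 23 of 26 without H3K27ac replicate 1), the H3K4me1 regions overlapping H3K27ac 24 to 27, and the switches 96 to 108. With windows shifted by 100 kb, the rank by H3K4me1 length was 41 in place of 27. Joining H3K27ac regions within 15 kb in place of 12.5 kb, chosen after seeing the data, gave a domain with 54.2 kb of H3K27ac in place of 45.9 kb, because the gap of 12980 bp above GRIN1 was then bridged. In the replicate block, which pairs same-numbered libraries, H3K27ac covered 51.5 kb, H3K4me1 43.8 kb, and the shares were 55.5 and 65.9%; no source says that the numbers mark shared cultures. Apart from that gap, the causes of these shifts were not tested. Over single genes, 17 of 20 values moved with the width of the span, as a wider span holds more peaks. Depth is unknown, so a place without a peak is not shown to lack the mark.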

Other observations

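Some peaks of the interval were found in 1 library only. The widest was an H3K4me1 peak of replicate 2 from 140089135 to 140090550 (1416 bp), between ANAPC2 and TUBB4B and off H3K27ac in both libraries. Another H3K4me1 peak of replicate 2, from 140188885 to 140189712 (828 bp), lay inside the H3K27ac region next to that of NRARP. Replicate 2 also had an H3K4me1 peak from 140183489 to 140183956 (468 bp) and an H3K27ac peak from 140183661 to 140183902 (242 bp) at the same place between NELFB and NRARP, where replicate 1 had neither.

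When H3K27ac regions within 12.5 kb were joined, 17 of the 18 regions formed 1 domain of 116 kb, and the wide region at the end of GRIN1 stayed apart by a gap of 12980 bp. The domain had 63.8 switches between states per 100 kb, against 24.2 to 78.2 in the 9 other domains with the most H3K27ac. H3K4me1 covered 59.1% of its H3K27ac, against 2.72 to 96.0% in those 9 domains. It thus lay inside their range on both counts.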
